A study of Mus musculus with 6 samples.

Results

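The genes described here are 45 messenger RNAs of G2 and mitosis, read in LT-HSCs, the long-term stem cells of blood, with and without re-expressed IMP1. They were chosen by name for their known roles in the last part of the cell cycle, with earlier results of these data known. All 45 were found among the 21761 genes of the count table. LT-HSCs are the rare marrow cells that can rebuild the whole blood system, and in adult marrow they divide seldom. IMP1, encoded by Igf2bp1, is an RNA-binding protein of fetal tissues. The IMP1 group carried the genotype Rosa26 I/+;Mx1-Cre tg/+, a Cre-dependent IMP1 knock-in at the Rosa26 locus. The Control group was Rosa26 +/+;Mx1-Cre tg/+, with the same Cre transgene and no knock-in. In each group, marrow of the CD45.2 allotype had been placed in lethally irradiated CD45.1/2 hosts, and Cre, which the interferon-responsive Mx1 promoter drives, had been induced with poly(I:C). CD45.2+ LSK CD150+ CD48- CD34- cells were taken 8 weeks past the final dose, 200 cells for a library. There were 3 libraries of each genotype, described in the labels as biological replicates. The sources used here give neither the age of the mice nor whether animals were pooled.

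Passage through G2 and mitosis is driven by cyclin-dependent kinase 1 with its cyclins and by the Plk1 and Aurora kinases. The anaphase-promoting complex (APC/C), a ubiquitin ligase held in check by the spindle checkpoint, then removes the cyclins. Most of these messenger RNAs are made late in the cycle under the DREAM and MuvB complexes, B-Myb and Foxm1, and are scarce in resting cells. In bulk RNA of a stem cell population they are therefore widely read as markers of dividing cells. How many cells were dividing and how much of each RNA a dividing cell held cannot be told apart in these libraries.

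The IMP1 libraries held 61916908, 67083116 and 50220629 counts and the Control libraries 27338450, 26326164 and 25749898, so depth differed with genotype and cannot be told apart from it by any label. Igf2bp1, the induced gene, stood at 29.3, 30.04 and 38.8 counts per 1000000 (CPM) in the IMP1 libraries, against 0, 0 and 0.04001 CPM in the Control libraries. CPM here include scaling by the trimmed mean of M values (TMM), and values of a group are always given for libraries 1, 2 and 3 in that order. The LT-HSC markers Slamf1, which encodes CD150, Procr, Hlf and Mecom were present in all 6 libraries, and all 10 genes of that list summed to 2063 to 2300.5 CPM in the IMP1 libraries, against 1585 to 1810.2 CPM in the Control libraries. Cd48, whose protein the sort excluded, was at 26.8, 7.86 and 3.31 CPM in the IMP1 libraries, against 18.1, 1.86 and 2.84 CPM in the Control libraries, and Cd34 at 212, 141 and 151 CPM in the IMP1 libraries, against 263, 317 and 269.9 CPM in the Control libraries. The whole table gave 27 calls, 0.211% of 12807 genes tested, at an adjusted p under 0.05 by the quasi-likelihood test of edgeR.

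The messenger RNAs of G2 and mitosis stood mostly higher in the IMP1 cells, though 0 of 45 passed the threshold of that test. Since the list was chosen with earlier results of these data known, the shares of all tested genes beside it are description and not independent support. Log2 fold changes were positive for 41 of the 45 genes, where 52.2% of all tested genes were positive. Their median was 0.90, a 1.87-fold difference, beside a median of 0.03 over all tested genes. At an unadjusted p under 0.05, 18 of the 45 were higher, with a background of 6.67% of tested genes, and 1 was lower, with a background of 7.63%. All IMP1 libraries lay above all Control libraries for 16 of the 45 (10.7% of all tested genes), and all lay below them for 1 (11.2%). A log2 fold change over 1 was found for 18 of the 45 (9.04% of all tested genes). All 45 passed the filter on low counts, and the plot of log2 fold changes by role shows that every role held positive members. The lowest adjusted p among them was 0.08505, for Ube2c. DESeq2, which was run beside edgeR, called 11 of the 45 at an adjusted p under 0.05, with a background of 6.39%, and limma-voom called 0. The 10 called higher by DESeq2 (2.81% of the genes it tested) were Ube2c, Kif15, Cenpa, Aurka, Nusap1, Anln, Kif11, Prc1, Tpx2 and Mki67, and the 1 called lower (3.59%) was Mad2l1.

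The single libraries of a group counted for much in these numbers. Without IMP1 1, 39 of the 45 stayed positive with a median of 0.70, and 7 were higher at an unadjusted p under 0.05, with a background of 5.94%. Without IMP1 3, 40 were positive and 10 were higher at that level (background 5.15%). Without IMP1 2, 44 were positive, the median was 1.100 and 26 were higher (background 5.36%). Leaving out Control 2 left 39 positive and 12 higher (background 6.64%). Without Control 1 there were 16 higher (background 6.34%), and without Control 3 there were 15 (background 6.35%). With all libraries thinned to the total of the smallest, 19 were higher (background 6.55%), and 17 were after a trend with transcript length and GC content was removed (background 5.72%). In each of these fits 0 of the 45 passed the adjusted threshold.

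**Figure D1:**
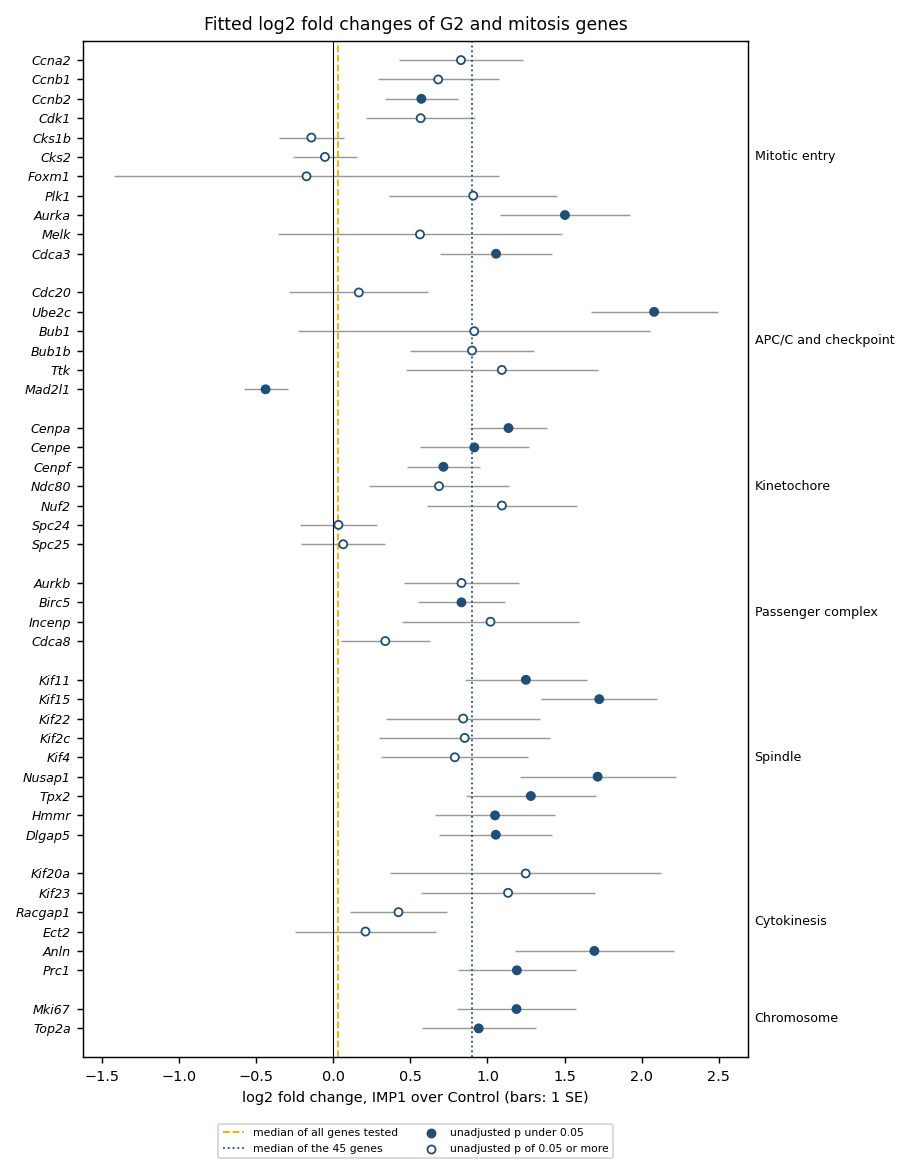
Fitted log2 fold changes (IMP1 over Control, horizontal axis) of the 45 genes, ordered by role, with bars of 1 standard error and filled points for an unadjusted p under 0.05. The dotted line at 0.90 is the median of the 45 genes and the dashed line at 0.03 that of all tested genes, and 41 of the 45 points lie right of 0.

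The starts of these genes share short sequence elements. Genes of the late cell cycle are known for the cell cycle homology region (CHR), a short element bound by the MuvB complex, and for CCAAT boxes, bound by NF-Y. The letters were not used in the choice by name. The genes were chosen for known late cell cycle roles, however, so a high share of matches was likely from that choice, whatever the libraries held. Promoter windows of 300 bases, 250 before and 50 after a transcript start, were taken from RefSeq (GRCm38.p6) and were found for 37 of the 45 genes, with 39 windows in all. Ect2 and Prc1 each had overlapping windows, which were counted separately. The 8 genes without a window were Ccna2, Foxm1, Spc24, Aurkb, Incenp, Tpx2, Dlgap5 and Kif20a. The CHR letters TTTGAA, searched on both strands, lay in 30 of the 39 windows (76.9%), against 17.9% of all 32851 windows. CCAAT, also searched on both strands, lay in 30 of the 39 (76.9%), against 37.4% of all windows. Both were present in 26 of the 39 (66.7%) and in 6.95% of all windows. Matches of the different motifs can share at most 1 base. Within 50 bases of the start on either side, a range chosen after the matches were seen, a CHR match lay in 28 of the 39 windows (71.8%) and in 4.94% of all windows. A match is a string of letters and not a shown binding site. Members with a CHR match had a median log2 fold change of 0.90 (28 genes), and the 9 with a window and no match, among them Nusap1, Birc5 and Mad2l1, one of 0.83. The 8 genes without a window had a median of 0.93. Differences between these classes were not tested.

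**Figure D2:**
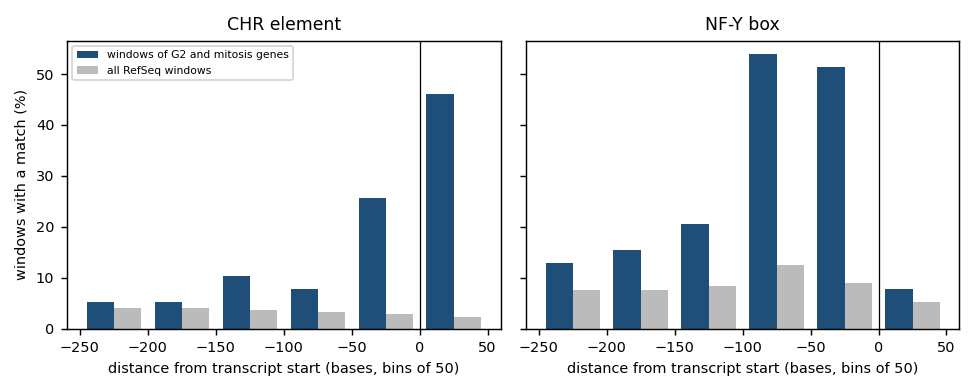
Share of promoter windows (vertical axis, %) with a match to the CHR element (left) and the NF-Y box (right) in bins of 50 bases by distance from the transcript start. The windows of the G2 and mitosis genes stand highest just after the start for the CHR element, at 46.2%, and in the bin from 100 to 50 bases before it for the NF-Y box, at 53.8%.

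The stretches below belong to the 4 genes with the lowest p among those holding a match, and are shown so that the letters can be seen in place. Capitals mark the matches, in either orientation, and positions count from the transcript start. Where an annotated exon covers the match, 30 bases around it are given.
Ube2c, chr2:164769748-164769897, plus strand: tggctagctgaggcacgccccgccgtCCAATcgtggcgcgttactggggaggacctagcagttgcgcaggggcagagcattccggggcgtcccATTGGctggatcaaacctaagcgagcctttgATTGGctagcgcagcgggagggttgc
Ube2c, chr2:164769888-164769917, plus strand: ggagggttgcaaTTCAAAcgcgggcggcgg
Kif15, chr9:122951050-122951079, plus strand: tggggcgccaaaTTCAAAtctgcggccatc
Cenpa, chr5:30666788-30666817, plus strand: acctttattctcATTGGtttatctggatgt
Cenpa, chr5:30666890-30666919, plus strand: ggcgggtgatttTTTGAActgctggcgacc
Aurka, chr2:172370571-172370680, minus strand: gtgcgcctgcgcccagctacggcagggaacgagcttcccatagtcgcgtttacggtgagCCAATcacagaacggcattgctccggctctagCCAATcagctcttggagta
Aurka, chr2:172370521-172370550, minus strand: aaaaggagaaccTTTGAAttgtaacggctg
In Ube2c the reverse CHR match began 29 bases before the start, downstream of a pair of reverse CCAAT matches. Cenpa and Aurka had the CHR match after the start and CCAAT matches before it. Kif15 had CHR letters close to its start, and its window held no CCAAT. Matches further before the start were left out of the printed stretches. Among them were a CHR match of Kif15 at −234, a reverse CCAAT match of Cenpa at −109 and a CCAAT match of Ube2c at −228.

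Of the APC/C and checkpoint genes, Ube2c showed the largest fold change of the 45. Ube2c encodes the E2 enzyme that hands ubiquitin to the APC/C, and it stood at 52.7, 26.02 and 53.4 CPM in the IMP1 libraries, against 12.2, 6.13 and 12.8 CPM in the Control libraries (log2 fold change 2.08, SE 0.41, adjusted p = 0.08505). Each IMP1 library was above each Control library, and the mean was 44.02 ± 15.6 CPM in IMP1 cells and 10.4 ± 3.71 CPM in Control cells (SD, n = 3 each). Its adjusted p ranged from 7.52e-05 to 0.219 over 16 alternative settings, of which 2 called it, DESeq2 and a stricter filter on low counts. Mad2l1, the checkpoint protein that binds Cdc20, was at 82.4, 76.6 and 72.2 CPM in the IMP1 libraries, against 104, 102 and 107 CPM in the Control libraries (log2 fold change −0.44, SE 0.14, adjusted p = 0.229). It was the single gene of the 45 whose IMP1 values all lay below the Control values, with an adjusted p of 0.0282 to 0.4004 over the alternatives. Cdc20, the APC/C activator, Bub1, a checkpoint kinase, Bub1b, which encodes BubR1, and Ttk, the checkpoint kinase Mps1, had overlapping groups with log2 fold changes of 0.17 to 1.09. Of the 6 genes, 5 were positive (52.2% of all tested genes). By unadjusted p under 0.05, 1 was higher (6.67%) and 1 lower (7.63%), and 0 passed after adjustment.

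At the kinetochore, the protein plate that ties chromosomes to the spindle, Cenpa was furthest apart. Cenpa encodes the histone H3 variant that marks centromeres, and it stood at 63.2, 45.9 and 43.99 CPM in the IMP1 libraries, against 26.999, 21.95 and 20.7 CPM in the Control libraries (log2 fold change 1.14, SE 0.25, adjusted p = 0.0991). The lowest IMP1 library was well above the highest Control library. Cenpf, a large kinetochore and nuclear matrix protein of G2, was at 46.5, 38.2 and 53.2 CPM in the IMP1 libraries, against 32.2, 27.8 and 24.05 CPM in the Control libraries (log2 fold change 0.71, SE 0.24, adjusted p = 0.242), again with no overlap. Cenpe, the kinetochore motor that carries chromosomes to the spindle equator, was at 51.5, 30.9 and 42.7 CPM in the IMP1 libraries, against 29.7, 13.1 and 23.6 CPM in the Control libraries (log2 fold change 0.91, SE 0.36, adjusted p = 0.299), and a narrow gap lay between IMP1 2 and Control 1. The 4 subunits of the Ndc80 complex, which grips microtubule ends, ran from near 0 upwards. Nuf2 was at 42.01, 35.3 and 56.7 CPM in the IMP1 libraries, against 13.03, 11.2 and 38.7 CPM in the Control libraries (log2 fold change 1.09, SE 0.49, adjusted p = 0.362) and Ndc80 at 33.4, 27.3 and 36.9 CPM in the IMP1 libraries, against 19.4, 8.58 and 32.8 CPM in the Control libraries (log2 fold change 0.69, SE 0.45, adjusted p = 0.5501), with overlapping groups. The other two subunits had log2 fold changes near 0 and overlapping groups. Spc24 stood at 64.3, 55.4 and 54.2 CPM in the IMP1 libraries, against 58.5, 38.96 and 72.7 CPM in the Control libraries (log2 fold change 0.03) and Spc25 at 37.996, 30.001 and 54.1 CPM in the IMP1 libraries, against 39.1, 33.3 and 44.4 CPM in the Control libraries (log2 fold change 0.06). All 7 kinetochore genes had a positive log2 fold change (52.2% of all tested genes), and 3 were higher at an unadjusted p under 0.05 (6.67%). The sign of Spc24, however, turned in 2 and that of Spc25 in 3 of the 16 alternatives.

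In the chromosomal passenger complex, which corrects faulty attachments and then steers cleavage, Birc5 stood apart between groups. Birc5, or survivin, the subunit that docks the complex on chromosomes, was at 58.1, 35.5 and 56.7 CPM in the IMP1 libraries, against 24.9, 24.4 and 35.2 CPM in the Control libraries (log2 fold change 0.83, SE 0.28, adjusted p = 0.246). IMP1 2 lay only just above the highest Control library. Aurkb, the kinase of the complex, was at 37.1, 27.1 and 29.9 CPM in the IMP1 libraries, against 15.1, 10.9 and 26.8 CPM in the Control libraries (log2 fold change 0.83, SE 0.38, adjusted p = 0.372), also with no overlap and a narrow gap. The scaffold gene Incenp had a log2 fold change of 1.02 with overlapping groups. Cdca8, which encodes borealin, was at 57.03, 28.9 and 48.7 CPM in the IMP1 libraries, against 32.2, 41.02 and 33.4 CPM in the Control libraries (log2 fold change 0.34, SE 0.29, adjusted p = 0.659), with IMP1 2 below every Control library. All 4 were positive (52.2% of all tested genes), and 1 was higher at an unadjusted p under 0.05 (6.67%).

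The spindle genes gave the most separated groups. Their summed level was 444, 228 and 378 CPM in the IMP1 libraries, against 170.4, 121 and 161 CPM in the Control libraries. For 6 of the 9, all IMP1 libraries lay above all Control libraries (10.7% of all tested genes). Kif15, a kinesin that helps to keep the spindle bipolar, stood at 29.2, 16.6 and 27.2 CPM in the IMP1 libraries, against 8.15, 5.74 and 8.202 CPM in the Control libraries (log2 fold change 1.73, SE 0.38, adjusted p = 0.0991). Kif11, or Eg5, the main motor that pushes spindle poles apart, was at 78.02, 37.02 and 31.2 CPM in the IMP1 libraries, against 15.7, 25.99 and 19.9 CPM in the Control libraries (log2 fold change 1.25, SE 0.39, adjusted p = 0.218). IMP1 1 was far above the other IMP1 libraries for Kif11, which were nearer to Control 2. Tpx2, which activates Aurora A on the spindle, was at 62.6, 41.3 and 46.01 CPM in the IMP1 libraries, against 32.9, 9.97 and 18.9 CPM in the Control libraries (log2 fold change 1.28, SE 0.42, adjusted p = 0.237). Hmmr, a spindle pole and hyaluronan-binding protein, was at 63.7, 36.2 and 57.5 CPM in the IMP1 libraries, against 34.7, 12.97 and 28.4 CPM in the Control libraries (log2 fold change 1.05, SE 0.39, adjusted p = 0.284). Both had a gap between the lowest IMP1 and the highest Control library. Nusap1, a microtubule-bundling protein, was at 73.8, 33.01 and 106 CPM in the IMP1 libraries, against 20.1, 11.2 and 33.5 CPM in the Control libraries (log2 fold change 1.71, SE 0.51, adjusted p = 0.1905). Dlgap5, or HURP, which stabilises fibres that reach kinetochores, was at 41.1, 23.3 and 44.5 CPM in the IMP1 libraries, against 11.6, 17.8 and 23.1 CPM in the Control libraries (log2 fold change 1.05, SE 0.37, adjusted p = 0.255). For Nusap1, IMP1 2 lay just under Control 3, while for Dlgap5 it lay just over it. Kif22, which pushes chromosome arms, Kif2c, which takes microtubules apart, and Kif4, a chromosome-bound kinesin, had log2 fold changes of 0.79 to 0.85 with adjusted p of 0.506 to 0.543. All 9 were positive (52.2% of all tested genes), and 6 were higher at an unadjusted p under 0.05 (6.67%).

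For cytokinesis, the final cut between daughter cells, Anln and Prc1 had the lowest p. Anln, which encodes anillin of the contractile ring, stood at 16.3, 10.5 and 10.5 CPM in the IMP1 libraries, against 2.22, 4.79 and 4.52 CPM in the Control libraries (log2 fold change 1.69, SE 0.52, adjusted p = 0.205). It is a scarce transcript, but every IMP1 library was above the highest Control library. Prc1, which bundles the microtubules of the midzone, was at 138, 48.3 and 108 CPM in the IMP1 libraries, against 38.2, 34.2 and 56.9 CPM in the Control libraries (log2 fold change 1.19, SE 0.38, adjusted p = 0.227), with IMP1 2 inside the Control range. Racgap1, part of the centralspindlin complex, was at 55.1, 68.5 and 117 CPM in the IMP1 libraries, against 44.6, 60.8 and 74.6 CPM in the Control libraries (log2 fold change 0.42, SE 0.32, adjusted p = 0.607), and its groups overlapped widely. Kif23, its partner in centralspindlin, Kif20a, a midzone kinesin, and Ect2, the exchange factor that turns on RhoA, had adjusted p of 0.423 to 0.885. Kif20a was at 31.7, 1.98 and 30.5 CPM in the IMP1 libraries, against 10.3, 12.4 and 4.32 CPM in the Control libraries (log2 fold change 1.25, SE 0.88, adjusted p = 0.577), so its IMP1 libraries spread more widely than the groups differed. All 6 were positive (52.2% of all tested genes), and 2 were higher at an unadjusted p under 0.05 (6.67%).

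The chromosome-coating protein gene Mki67, the source of the Ki-67 antigen used to stain cycling cells, stood at 182, 62.2 and 84.8 CPM in the IMP1 libraries, against 54.97, 36.8 and 52.6 CPM in the Control libraries (log2 fold change 1.19, SE 0.39, adjusted p = 0.2304). The groups did not overlap, and IMP1 1 stood far above every other library. Top2a, which untangles sister chromatids, was at 175, 101 and 157 CPM in the IMP1 libraries, against 109.6, 37.9 and 78.2 CPM in the Control libraries (log2 fold change 0.94, SE 0.37, adjusted p = 0.302). IMP1 2 lay just below Control 1 for this gene, while IMP1 1 and IMP1 3 lay above all Control libraries.

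Among the genes of mitotic entry log2 fold changes ran to both sides of 0. Aurka, the centrosomal Aurora kinase, stood at 30.01, 18.5 and 29.2 CPM in the IMP1 libraries, against 12.9, 5.22 and 9.32 CPM in the Control libraries (log2 fold change 1.503, SE 0.42, adjusted p = 0.172). Cdca3, which promotes mitotic entry as part of a ubiquitin ligase, was at 34.6, 22.5 and 40.9 CPM in the IMP1 libraries, against 21.6, 11.4 and 14.2 CPM in the Control libraries (log2 fold change 1.06, SE 0.36, adjusted p = 0.248). Neither gene had overlapping groups. Ccnb2, a cyclin partner of Cdk1, was at 109, 64.8 and 109 CPM in the IMP1 libraries, against 55.2, 73.3 and 62.2 CPM in the Control libraries (log2 fold change 0.57, SE 0.24, adjusted p = 0.331), with IMP1 2 inside the Control range. The Cdk-binding subunits Cks1b and Cks2 had log2 fold changes near 0 and overlapping groups, and the sign turned in 2 of the 16 alternatives for Cks1b and in 4 for Cks2. Cks1b stood at 103, 65.2 and 97.3 CPM in the IMP1 libraries, against 111, 96.4 and 85.7 CPM in the Control libraries (log2 fold change −0.14) and Cks2 at 117, 71.1 and 97.1 CPM in the IMP1 libraries, against 92.3, 93.1 and 111 CPM in the Control libraries (log2 fold change −0.05). Cdk1 itself was at 94.3, 52.7 and 81.8 CPM in the IMP1 libraries, against 76.9, 30.97 and 46.7 CPM in the Control libraries (log2 fold change 0.57, SE 0.36, adjusted p = 0.528), and Ccnb1, the main mitotic cyclin, at 101, 54.6 and 127 CPM in the IMP1 libraries, against 42.1, 91.6 and 42.9 CPM in the Control libraries (log2 fold change 0.68, SE 0.39, adjusted p = 0.494). Ccna2, the cyclin of S phase and G2, was at 32.8, 13.1 and 21.5 CPM in the IMP1 libraries, against 10.7, 13.7 and 13.5 CPM in the Control libraries (log2 fold change 0.83, SE 0.40, adjusted p = 0.404). In these, IMP1 2 stood within the Control range and IMP1 1 and IMP1 3 above it. Plk1, the kinase that drives several steps of mitosis, had a log2 fold change of 0.91 and Melk, a kinase of proliferating cells, one of 0.56. Foxm1, the transcription factor of G2 genes, was at 9.49, 1.93 and 5.76 CPM in the IMP1 libraries, against 0.0751, 8.03 and 11.3 CPM in the Control libraries (log2 fold change −0.17, adjusted p = 0.968), with only 2 counts in Control 1. Of the 11 genes 8 were positive (52.2% of all tested genes), and 3 were higher at an unadjusted p under 0.05 (6.67%).

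**Figure D3:**
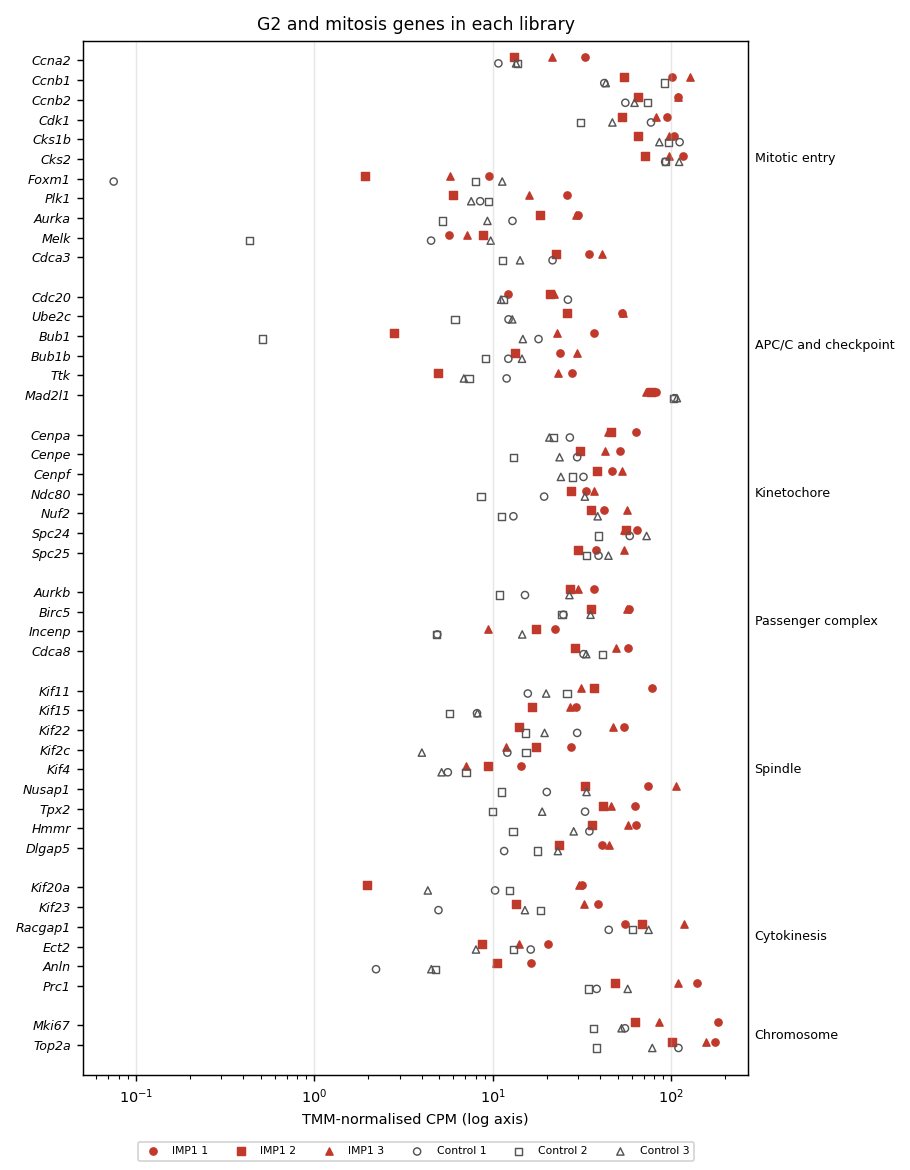
TMM-normalised CPM (log axis) of the 45 genes in each of the 6 libraries, ordered by role, with filled red marks for IMP1 and open grey marks for Control libraries. For 16 genes all red marks lie right of the grey ones, for Mad2l1 they all lie left, and the square of IMP1 2 is the lowest red mark for 34 genes.

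Library by library, IMP1 1 and IMP1 3 carried most of the difference. The 45 genes summed to 2515, 1439 and 2276 CPM in the IMP1 libraries, against 1368, 1146 and 1403 CPM in the Control libraries. IMP1 2 thus stood just above the highest Control library, far from the other IMP1 libraries. It was the lowest IMP1 library for 34 of the 45 genes, and lay above all Control libraries for 18, within their range for 18 and below them for 9. IMP1 1 lay above all Control libraries for 37 genes and IMP1 3 for 35. The highest value of all 6 libraries was in IMP1 1 for 28 genes, in IMP1 3 for 11 and in IMP1 2 for 0, and the lowest was in Control 2 for 21. For these counts of single libraries the shares over all tested genes were not computed. They therefore compare the libraries with each other within this list only.

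Markers of other blood cells also differed between the libraries, and their part in these values was not tested. The erythroid list, with 11 of its 12 genes in the table, summed to 431, 109 and 170.1 CPM in the IMP1 libraries, against 79.4, 63.7 and 89.6 CPM in the Control libraries. It was highest in IMP1 1, where Car1, carbonic anhydrase of red cell precursors, stood at 146 CPM. Of the erythroid genes 7 were tested and 5 were positive (52.2% of all tested genes). At an unadjusted p under 0.05, Hbb-b1, Ermap and Tfrc were higher (6.67% of all tested genes) and Aqp1 was lower (7.63%). After adjustment, 1 of the higher genes passed (0.211% of all tested genes, either direction). The 10 neutrophil genes summed to 927, 513 and 231 CPM in the IMP1 libraries, against 286, 273 and 315 CPM in the Control libraries, with Ltf, or lactoferrin, at 0 counts in IMP1 3, Control 2 and Control 3. Of these 10, 8 were tested. At an unadjusted p under 0.05, 5 were higher (6.67% of all tested genes), S100a8 and S100a9 among them. Lower at that level were 2 (7.63%), Mpo and Prtn3, and the sum joins both kinds. The 7 B cell genes summed to 79.9 to 147 CPM in the IMP1 libraries, against 71.6 to 85.5 CPM in the Control libraries, with Pax5 at 0 counts in all 6 libraries, and Igll1 reached 33.2 CPM in IMP1 2. The 6 T and NK cell genes summed to 119.9 to 129.6 CPM in the IMP1 libraries, against 224 to 408 CPM in the Control libraries, with Cd3g at 0 throughout. That lower sum does not hold for most of its members, since 4 were tested and 3 of them were positive (52.2% of all tested genes). At an unadjusted p under 0.05, Klrb1c was higher (6.67%) and Nkg7 lower (7.63%), and Nkg7 also passed after adjustment (0.211%, either direction). The 7 mast cell and basophil genes summed to 2.45 to 14.7 CPM in the IMP1 libraries, against 36.01 to 44.9 CPM in the Control libraries, with Gzmb and Cma1 at 0 throughout, and the 5 megakaryocyte genes to 218 to 419.6 CPM in the IMP1 libraries, against 321 to 641 CPM in the Control libraries. Without IMP1 1, the library with the highest erythroid and neutrophil sums, 39 of the 45 genes were positive, with a median of 0.70. At an unadjusted p under 0.05, 7 of the 45 were higher (background 5.94%). With all libraries these values were 41, 0.90 and 18 (background 6.67%). Leaving out a library also removes all else that sets it apart and leaves fewer samples, so the part of these markers stays untested.

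The genes of the step before, G1/S and DNA replication, lay mostly on the other side of 0. Of 38 such genes, all tested, 8 had a positive log2 fold change, with a median of −0.25. At an unadjusted p under 0.05, 3 were higher and 8 lower, beside 6.67% and 7.63% of all tested genes, and 0 passed after adjustment. Their lowest p belonged to Ccnd1, or cyclin D1, at 14.7, 8.07 and 17.6 CPM in the IMP1 libraries, against 3.72, 3.84 and 4.24 CPM in the Control libraries (adjusted p = 0.154), and to Mcm3, a subunit of the replicative helicase, at 195, 140.2 and 177 CPM in the IMP1 libraries, against 311, 289 and 206 CPM in the Control libraries (adjusted p = 0.178). The 38 genes summed to 5155, 3462 and 4096 CPM in the IMP1 libraries, against 5689, 4467 and 4777 CPM in the Control libraries. In each group the library with the lowest sum of G2 and mitosis genes, IMP1 2 or Control 2, also had the lowest sum of G1/S genes. The ratio of the sums, a measure chosen after the values were seen, was 0.488, 0.416 and 0.556 in the IMP1 libraries and 0.2405, 0.257 and 0.294 in the Control libraries. Its mean was 0.486 ± 0.0699 in IMP1 and 0.264 ± 0.0273 in Control cells (SD, n = 3 each). IMP1 2, whose sum of G2 and mitosis genes was near Control, thus had a ratio above every Control library. No test was made of this ratio or of the difference between the lists. Leaving out each library in turn gave 4 to 14 positive genes of 38 for G1/S and 39 to 44 of 45 for G2 and mitosis.

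**Figure D4:**
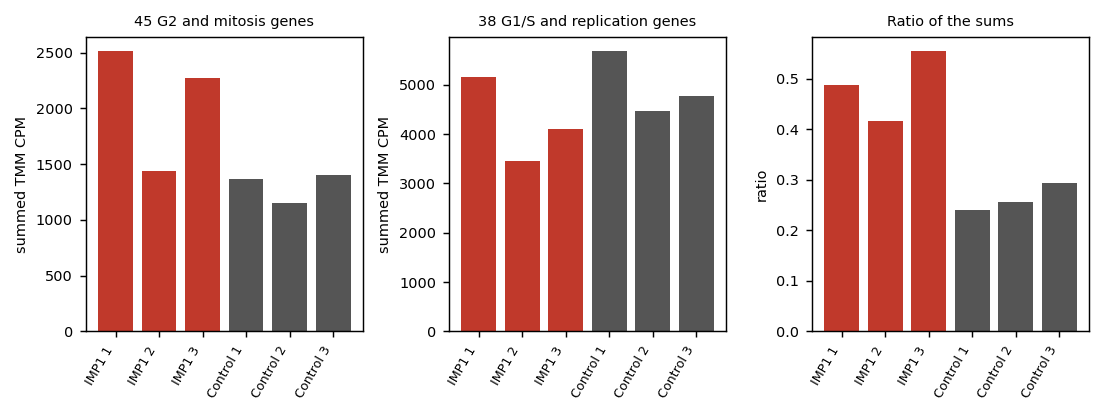
Summed TMM-normalised CPM of the 45 G2 and mitosis genes (left) and the 38 G1/S and replication genes (middle), and the ratio of the sums (right), with 1 bar for each library, red for IMP1 and grey for Control. The ratio lies between 0.416 and 0.556 in the IMP1 libraries and between 0.240 and 0.294 in the Control libraries, while the left and middle sums come close together or overlap.

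Further lists of cell cycle genes are set beside the shares of all tested genes, of which 52.2% were positive and, by unadjusted p under 0.05, 6.67% higher and 7.63% lower. Of 44 further genes of the mitotic machinery, 32 were positive with a median of 0.46, 6 were higher with 0 lower by unadjusted p under 0.05, and 0 passed after adjustment. Among those with the lowest p was Aspm, a spindle pole protein, at 21.2, 15.6 and 30.1 CPM in the IMP1 libraries, against 7.25, 4.67 and 10.2 CPM in the Control libraries (adjusted p = 0.164), with no overlap between the groups. Among 23 other regulators 14 were positive with a median of 0.12, with 2 higher and 1 lower by unadjusted p under 0.05 and 0 after adjustment. The 2 higher were the pocket protein genes Rbl2, at 59.98, 83.5 and 87.6 CPM in the IMP1 libraries, against 51.4, 44.1 and 46.97 CPM in the Control libraries (adjusted p = 0.191), and Rbl1, at 72.4, 50.2 and 61.9 CPM in the IMP1 libraries, against 44.3, 22.9 and 36.5 CPM in the Control libraries (adjusted p = 0.251). Their products hold late cell cycle genes silent in the DREAM complex. The 14 core subunits of the APC/C, which are made throughout the cycle, had 6 positive members and a median of −0.03, with 2 higher, 1 lower and 0 after adjustment. Their lowest p were those of Anapc1, at 119, 172 and 88.9 CPM in the IMP1 libraries, against 74.3, 59.3 and 58.98 CPM in the Control libraries (adjusted p = 0.134), and Anapc7, at 18.4, 36.4 and 23.5 CPM in the IMP1 libraries, against 46.7, 43.6 and 43.9 CPM in the Control libraries (adjusted p = 0.286). Of 7 CDK inhibitor genes 5 were tested and 2 were positive, with 1 higher and 3 lower by unadjusted p under 0.05 and 0 after adjustment. Cdkn1c, or p57, stood at 17.5, 25.5 and 21.6 CPM in the IMP1 libraries, against 5.22, 7.28 and 7.72 CPM in the Control libraries (adjusted p = 0.0991), and Cdkn1b, or p27, at 49.9, 70.7 and 56.5 CPM in the IMP1 libraries, against 107, 125 and 76.2 CPM in the Control libraries (adjusted p = 0.178). The differences between these lists were not tested.

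**Figure D5:**
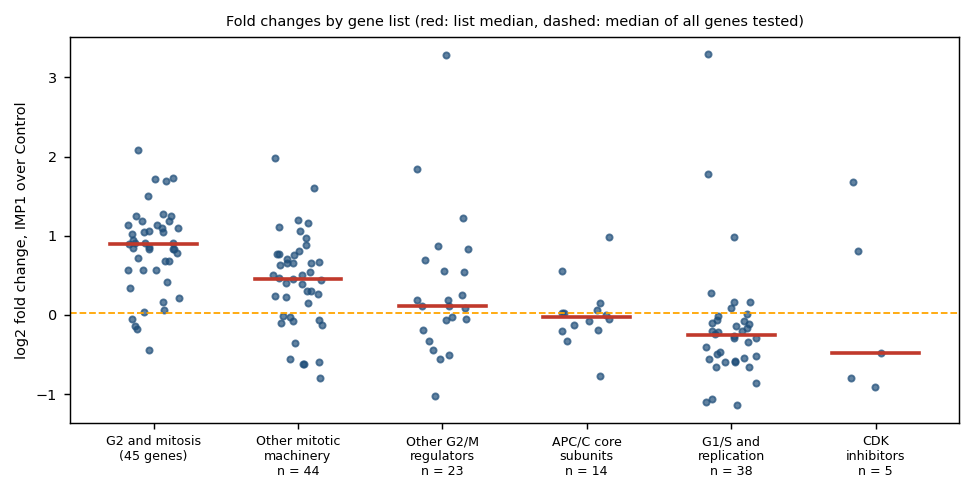
Log2 fold changes (IMP1 over Control, vertical axis) of the tested genes of 6 lists, 1 point for each gene, with red bars at the list medians and a dashed line at the median of all genes tested. The medians run from 0.90 for the 45 G2 and mitosis genes and 0.46 for other mitotic machinery to −0.25 for G1/S and replication genes.

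Levels of the 45 genes, compared between genes as mean CPM of all 6 libraries per kilobase of the longest annotated transcript, spanned a wide range. The small Cdk subunit genes Cks2 and Cks1b were highest at 139.9 and 109.8 CPM per kilobase, followed by Ccnb2 at 51.6 and Spc24 at 33.8. The lowest were Foxm1 at 1.31, Kif4 at 1.63 and Anln at 1.77 CPM per kilobase. Their median of 8.36 lay near that of all tested genes with a known length, 7.16 CPM per kilobase. These means join both genotypes and are not the levels of Control cells alone. Of the 6 most abundant by this scale, Cks2, Cks1b, Spc24 and Spc25 had log2 fold changes of −0.14 to 0.06, and those of Ccnb2 and Ccnb1 were 0.57 and 0.68.

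Some of these counts depend on how reads were assigned. Without strand information, reads of overlapping genes cannot be told apart, and 8 of the 45 overlap another gene of the table in the reference. For Aurka, Nusap1, Anln, Prc1, Ccna2 and Kif20a, the values of the neighbours overlapped between the groups, and Tex52, which overlaps Foxm1, was at or near 0 in every library. Elovl1, which overlaps Cdc20, was at 178, 147 and 129.7 CPM in the IMP1 libraries, against 189, 231 and 277 CPM in the Control libraries (adjusted p = 0.183), with every IMP1 library below every Control library. Cstf1, which overlaps Aurka, stood at 39.4, 42.7 and 48.2 CPM in the IMP1 libraries, against 46.4, 47.7 and 41.1 CPM in the Control libraries, and Oip5, which overlaps Nusap1, at 22.9, 19.04 and 12.2 CPM in the IMP1 libraries, against 21.6, 22.5 and 17.9 CPM in the Control libraries. The neighbour of Anln, 9530077C05Rik, stood at 8.61, 10.2 and 8.63 CPM in the IMP1 libraries, against 9.05, 6.09 and 7.04 CPM in the Control libraries, and that of Prc1, Rccd1, at 3.999, 6.098 and 1.08 CPM in the IMP1 libraries, against 1.73, 4.75 and 2.76 CPM in the Control libraries. Ccnb1, Ccnb2, Kif22 and Kif4 have a named pseudogene that could take or lend reads.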

How the data were processed

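The deposited values are unnormalised counts, by Entrez identifier, with a column for each of 6 libraries, per the file headers. The submitters' processing notes name TopHat2 2.0.10 and mm9 without their role, with the counting program, strand setting and annotation not given in the sources used here. Complementary DNA was made with a SMARTer kit, per the labels' protocols, and no molecular identifiers are named there, so precision from depth covers counting error only. Symbols were matched by Entrez identifier to RefSeq (GRCm38.p6) for 21615 identifiers, and 0 columns were unmatched. Transcript lengths came from GENCODE M21.

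Counts entered edgeR 4.0.16 (R 4.3.3), whose quasi-likelihood test was run with TMM scaling, filterByExpr and genotype as the single term in 1 fit of all 6 libraries and 12807 genes. P-values were adjusted over all tested genes by the Benjamini-Hochberg method. Standard errors were obtained from F as the size of the log2 fold change over its square root. Tests were tried on simulated data. DESeq2 1.42.0, limma 3.58.1 (voom), other scalings and filters, thinning to 25749898 counts, removal of a length and GC trend (loess, span 0.4), a replicate block and each library left out were the alternatives. The 45 genes, their roles and the other lists were chosen with earlier results of these data known. Values were given in full, by rule, for genes with an unadjusted p under 0.05, the 2 most abundant of each role and those of extreme fold change, which named 25 genes. Values in full for Cdk1, Ccnb1, Ccna2, Foxm1, Kif20a, Aurkb, Nuf2 and Ndc80 were added after theirs were seen. Libraries of a group differed by a chi-square of at least 61.0 for each degree of freedom, and none were merged as duplicates. The labels call the libraries biological replicates, without saying which animals each came from, so p-values measure the spread between these samples. Some genes that the naming rule covers are not reported here.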

Additional observations from a re-analysis of the deposited data

How the results depend on the processing

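The median log2 fold change of the 45 genes stayed positive in all 16 alternatives, from 0.70 without IMP1 1 to 1.10 without IMP1 2. It was 0.85 after thinning to equal library totals, and 0.84 with 43 of 45 positive once the trend with length and GC was taken out. The count of the 45 past the adjusted threshold was 0 in the reported fit, 11 with DESeq2 and 1, Ube2c, with the strict filter, and 0 elsewhere, and the cause of the difference was not tested. The count at an unadjusted p under 0.05, both directions, was 19, with 18 higher (6.67% of all tested genes) and 1 lower (7.63%). With each library left out in turn it was 8 to 27. Of these, 7 to 26 were higher, with backgrounds of 5.15% to 6.64%, and 1 was lower in each fit. Over all genes, 27 calls became 879 with DESeq2, 11 with limma-voom, 16 without TMM, 127 with the strict filter, 12 with the trend removed, and 0 to 2 with a library left out, where fewer samples were fitted. With the replicate number as a block, 4 genes were called. Same-numbered libraries correlated at 0.0180 to 0.0373 in their deviations from the group means, and IMP1 3 correlated best with Control 1, so the numbers were not taken as pairs. Of 400 refits of single named genes, 377 kept direction and side of the threshold, 12 newly passed, 0 lost a call and 11 turned in sign. Since 0 of these genes passed in the reported fit, no call could be lost, and keeping the side meant staying uncalled. With each library left out in turn, Cks1b ran from −0.27 to 0.035, Cks2 from −0.23 to 0.12, Spc24 from −0.18 to 0.25 and Spc25 from −0.19 to 0.24. The others were Cks1b at 0.081 and Cks2 at 0.16 with the trend removed, Cks2 at 0.038 without TMM and Spc25 at −0.0034 with limma-voom. At totals of 25749898 to 67083116 counts, genes of a few counts in a library, such as Foxm1, are the least certain.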

Other observations

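A few genes of G2 and mitosis were far lower in single libraries than in others of the same group. Foxm1 had 2 counts in Control 1, against 203 in Control 2 and 282 in Control 3. Melk had 11 counts in Control 2, against 120 and 243 in the other Control libraries. Bub1 had 195 counts in IMP1 2, against 2354 in IMP1 1 and 1192 in IMP1 3, and 13 in Control 2, against 480 in Control 1 and 368 in Control 3. Kif20a had 137 counts in IMP1 2, against 2020 and 1582 in the other IMP1 libraries. Outside the 45 genes, Ccnf, which encodes cyclin F, stood at 45.02, 0.202 and 14.3 CPM in the IMP1 libraries, against 16.2, 35.4 and 23.2 CPM in the Control libraries, and Mastl, the Greatwall kinase gene, at 4.89, 0.476 and 14.2 CPM in the IMP1 libraries, against 1.95, 0 and 0.04001 CPM in the Control libraries. These genes were picked after their values were seen, and each library came from 200 cells. The 4 largest standard errors among the 45 genes were 1.25 for Foxm1, 1.14 for Bub1, 0.92 for Melk and 0.88 for Kif20a on the log2 scale. Among the IMP1 libraries, IMP1 2 was the lowest for Foxm1, Bub1, Kif20a, Ccnf and Mastl, and the highest for Melk.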
